A study of Mus musculus with 12 samples.

Results

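This comparison sets the livers of mice fed chow with 1% (w/w) of an oil rich in VLCPUFA, the very-long-chain polyunsaturated fatty acids, against the livers of mice fed the same chow without it. The members are the 4 libraries labelled 1%-VLCPUFA and the 4 control libraries, 8 of the 12 libraries of the series, taken by diet label and with no regard to measured values. The mice were wild-type C57BL/6J, 9 months old, and ate AIN-93G chow with 0, 1 or 5% of the oil for 8 weeks; every liver was taken after a 5 hr fast and death by injected tribromoethanol. Each diet has 2 females and 2 males. The labels do not say whether another fat replaced the oil in the control chow, nor whether a replicate number stands for 1 animal or for pooled tissue, so p values measure only the spread between these libraries. The series text speaks of 6 livers per group and the labels name 4, and only the labelled libraries were used. The 4 livers on 5% oil entered the fit to estimate the spread, and with it the gene filter, the scaling and the sex term. They are given beside the 1% values where the doses are compared.

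VLCPUFA have longer carbon chains than the common polyunsaturated fatty acids of the diet. Fatty acids and their acyl-CoA forms are ligands of PPARα, a nuclear receptor of hepatocytes that switches on genes for fatty acid uptake, omega-hydroxylation, acyl-CoA hydrolysis and oxidation in peroxisomes and mitochondria. Polyunsaturated fatty acids are also known to lower the active form of SREBP1, the transcription factor of lipogenesis, while its relative SREBP2 drives cholesterol synthesis and is held back by sterols. The comparison asks what the lower dose changes across all expressed genes of the liver.

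Poly(A) RNA was sequenced, and the 8 libraries held 5291385 to 12317219 estimated reads. Hepatocyte core genes (19 tested, such as albumin) summed to 133894 to 222648 CPM in controls and 132212 to 151969 CPM on 1% oil, and Xist and the Y-linked gene Eif2s3y followed the labelled sex in every liver. Control female N979 stood apart: it was the shallowest library, its transcript table exceeded its gene table by 9.20% where the other 7 gave 0.408% to 0.773%, and its share of long noncoding reads was 1.55% where the other controls gave 0.611% to 0.726%. The 1% livers had noncoding shares of 1.47% (N983), 1.83% (N984), 1.06% (N971) and 0.685% (N972), so the share was above the other 3 controls in 3 of the 4, and its part in the results was not tested apart from the fits given here. In what follows CPM are the counts relative to library size, scaled by library factors, controls are given in the order N979, N980 (females), N967, N968 (males), and 1% livers in the order N983, N984 (females), N971, N972 (males).

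Of 13814 genes tested, 31 passed an adjusted p of 0.05 at 1% oil in edgeR's quasi-likelihood test (0.224%), 19 of them higher (0.138%) and 12 lower (0.0869%) than in controls. Counts of list members past the threshold at 1% are to be read beside these shares. At an unadjusted p below 0.05 there were 1530 genes, and the median log2 fold change of all genes was 0.00063. The increases included Acot1, Acot2, Cyp4a10, Cyp4a14, Cyp4a31, Ehhadh, Eci2, Slc27a1, Krt23 and Smad9; the decreases included Abtb2, Sgsm1, Lrtm1, Mindy2, Ppard and the ER kinase gene Eif2ak3. In 30 of the 31 every 1% liver lay on the same side of all 4 controls, a separation seen in 3.87% of all genes tested, and the exception was Eif2ak3. The fold change had the same sign in females and in males for all 31. Because the 31 were taken for a small p in these same livers, the separation and the shared sign are partly what such a choice gives.

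The number of genes past the threshold depended on single livers. Without control N979 it was 184 (1.28% of 14378 tested), 63 of them higher (0.438%) and 121 lower (0.842%), and all 31 genes were among them. Leaving out another liver of the comparison gave 24 (control N980), 20 (control N967), 19 (control N968), 32 (1% N983), 13 (1% N984), 29 (1% N971) and 14 (1% N972). Without the 5% livers N987 and N975, which are no part of the contrast, it was 56 of 14599 tested and 53 of 14568. These livers enter through the gene filter, the scaling, the sex term and the shared spread, and their parts were not told apart. With the noncoding share as a term in the fit 29 genes passed, 23 of the 31 among them, and without the 3 livers richest in noncoding reads (N979, N983, N984) 37 passed, 16 of the 31 among them; every one of the 31 kept its direction in both. Of the 27 genes past the threshold that are named here, 6 lost the call with the noncoding share in the fit (Abhd6, Eif2ak3, Fam198a, Mindy2, Serinc2 and Slc25a30), 12 without those 3 livers and 18 with no sex term; the adjusted p of each is given with the gene.

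**Figure D1:**
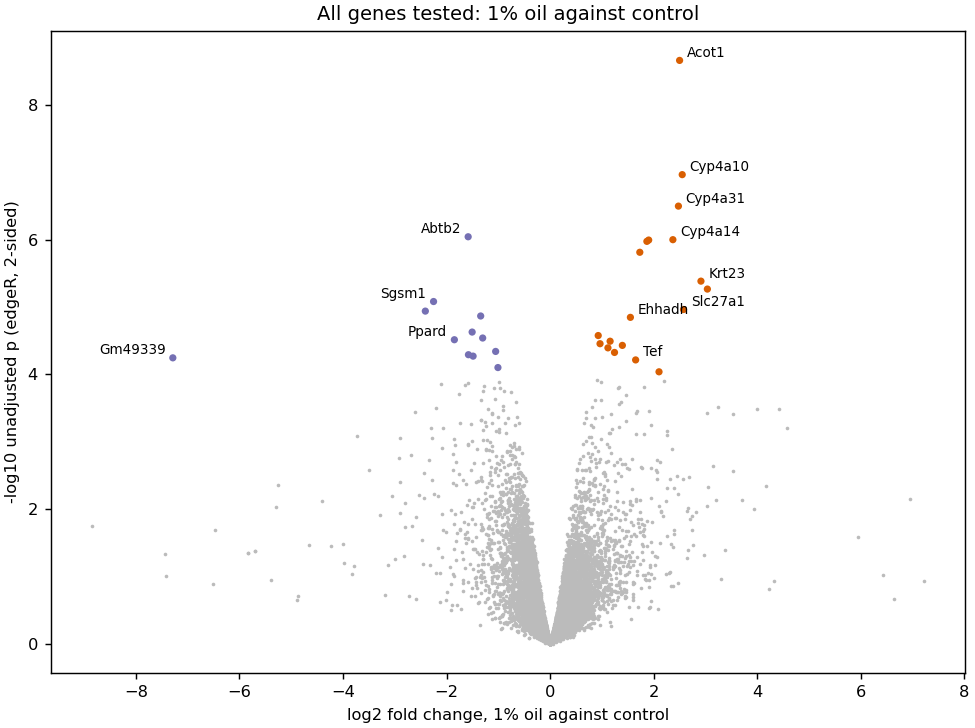
Log2 fold change of 1% oil against control (x axis) and -log10 of the unadjusted edgeR p (y axis) for the 13814 genes tested. Coloured points are the 31 genes past an adjusted p of 0.05, 19 higher (orange) and 12 lower (violet); Acot1 stands highest, and Gm49339 is far left because it had no read at 1%.

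**Figure D2:**
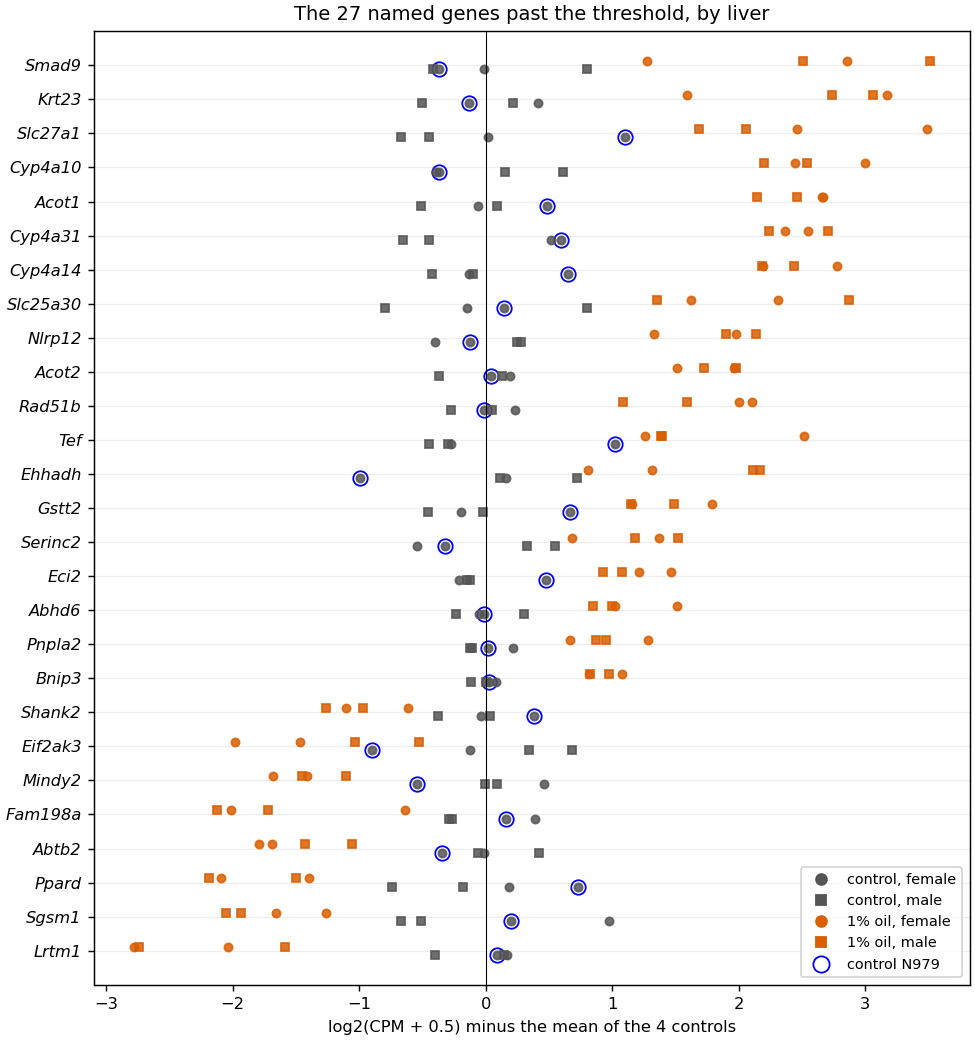
Each row is 1 of the 27 named genes past the threshold and each point 1 liver, as log2(CPM + 0.5) minus the mean of the 4 controls (circles females, squares males; grey control, orange 1% oil, blue ring control N979). The 1% livers lie clear of the controls in every row except Eif2ak3.

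The omega-hydroxylases of the Cyp4a family, enzymes that oxidise the far end of fatty acids and classic PPARα targets, rose by 5.17 to 5.86 times in 3 members. Cyp4a10 was 296, 292, 584 and 426 CPM in the 4 controls and 2089.6, 3065, 1763 and 2233 CPM in the 1% livers (log2 fold change 2.55 ± 0.26 SE, adjusted p = 7.51e-04). Cyp4a14 went from 768, 446, 456 and 363 CPM to 2229.6, 3353, 2223 and 2639.8 CPM (2.37 ± 0.28, adjusted p = 0.00210). The lowest 1% liver of either gene was above its highest control. Cyp4a31 had 14.5, 13.7, 5.80 and 6.77 CPM in controls and 50.7, 57.6, 64.5 and 46.4 CPM at 1% (2.48 ± 0.27, adjusted p = 0.00147). These were 3 of the 13 tested members of a list of Cyp4a and Cyp4f genes (0 lower, median log2 fold change 0.63), where 0.138% of all genes rose. Summed, the list stood at 1312 to 2286 CPM in controls and 4944 to 7065 CPM at 1%. Without N979 it had 5 members past the threshold, all higher, where 0.438% of all genes were. Cyp4a12b, a male-predominant member, read 0, 0.200, 132 and 72.0 CPM in controls and 0.385, 0.156, 343 and 339 CPM at 1% and did not pass (1.68 ± 0.36, adjusted p = 0.0729). Reads of such near-identical genes are shared out by estimation, so the values of single Cyp4a members are uncertain.

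Acyl-CoA thioesterases split acyl-CoA into free fatty acid and CoA, Acot1 in the cytosol and Acot2 in mitochondria. Acot1 had the smallest p of all genes: it was 24.5, 16.6, 18.5 and 12.03 CPM in controls and 112, 113, 78.6 and 97.7 CPM at 1% (2.50 ± 0.19, a 5.66-fold rise, adjusted p = 3.02e-05). Acot2 was 7.07, 7.90, 5.17 and 7.52 CPM in controls and 20.5, 28.1, 28.4 and 23.8 CPM at 1% (1.87 ± 0.23, adjusted p = 0.00210). In both genes the 4 controls and the 4 treated livers formed separate groups, and both passed under all 25 alternative settings. Any reads that fit both genes were shared out by estimation, and none of the settings changed how reads were assigned. They were the 2 of 11 thioesterase genes that rose, where 0.138% of all genes did, with a list median of 0.25, and none fell. The 2 genes lie near each other on chromosome 12, and the 250 bases before each start site are printed here because both genes rose. Aligned over their whole length, the 2 windows matched in 45.2% of columns (128 identical, 89 mismatched and 66 gaps). How often unrelated windows share a run as long as theirs was not tested, nor was any part of it in the rise. The sequences are RefSeq's on GRCm38.p6, plus strand, and capitals mark the longest run the 2 windows share, 9 bases.
Acot1 (chr12:84009252-84009501): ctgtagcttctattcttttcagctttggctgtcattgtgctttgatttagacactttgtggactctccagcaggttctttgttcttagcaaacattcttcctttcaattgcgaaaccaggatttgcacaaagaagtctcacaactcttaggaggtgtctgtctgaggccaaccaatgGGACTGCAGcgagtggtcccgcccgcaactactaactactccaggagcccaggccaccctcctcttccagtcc
Acot2 (chr12:83987611-83987860): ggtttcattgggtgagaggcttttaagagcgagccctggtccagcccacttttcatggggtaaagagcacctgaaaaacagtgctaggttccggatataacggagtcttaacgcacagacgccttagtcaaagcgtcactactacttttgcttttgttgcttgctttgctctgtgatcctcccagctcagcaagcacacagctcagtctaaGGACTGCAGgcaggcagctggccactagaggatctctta
Windows of this kind were matched by symbol for 21 of the 27 named genes past the threshold. No window was used for Cyp4a10, Cyp4a14, Cyp4a31, Gstt2, Fam198a and Shank2. The PPARα response element in a strict form, AGGNCA repeated in the same direction with 1 base between and searched on either strand, was in 0 of the 30 windows of the 21 genes and in 0.338% of all 32851 windows, which says only that these letters are not in these bases.

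Peroxisomes shorten very long acyl chains before mitochondria finish the work. Of 45 tested peroxisomal genes 2 rose at 1%, where 0.138% of all genes did, both isomerase or hydratase steps of beta-oxidation. Ehhadh, the bifunctional enzyme, was 118, 263, 389 and 255 CPM in controls and 414, 588, 1061 and 1019 CPM at 1% (1.55 ± 0.24, adjusted p = 0.0132). Eci2, an enoyl-CoA isomerase, was 235, 146, 152 and 154 CPM in controls and 389.8, 466, 320.3 and 356 CPM at 1% (1.16 ± 0.19, adjusted p = 0.0224). Among the controls N979 was the lowest for Ehhadh and the highest for Eci2, and on 1% oil the males held the higher Ehhadh levels. The calls were lost without 1 of several livers: N968, N984 or N972 for Ehhadh (adjusted p 0.0578 to 0.0760) and N980, N967, N968, N984 or N972 for Eci2 (adjusted p 0.0579 to 0.0833). With no sex term they were lost too (0.158 for Ehhadh and 0.0566 for Eci2), and that of Eci2 also without the 3 livers rich in noncoding reads (0.0643). The median of the list was 0.13, 7 members lay above all controls in every 1% liver, where 1.83% of all genes did, and none lay below.

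No gene of mitochondrial beta-oxidation or ketogenesis passed the threshold, although 26 of the 30 had a positive fold change and the median was 0.31. Slc25a20, the acylcarnitine carrier, was 76.7, 79.1, 118 and 108 CPM in controls and 128, 165, 148 and 169 CPM at 1% (0.70 ± 0.15, adjusted p = 0.0774). Eci1, the mitochondrial isomerase, was 96.5, 96.8, 129.8 and 151 CPM and 166, 237, 192 and 239.5 CPM (0.83 ± 0.19, adjusted p = 0.0878). The 1% livers of both genes were above all controls without the difference passing over all genes. Cpt1a, the gate of long chains into mitochondria, gave 0.51 ± 0.19 (adjusted p = 0.331), with overlapping livers. Without N979, 2 of the 30 rose past the threshold, where 0.438% of all genes did.

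Slc27a1, Pnpla2, Abhd6 and Slc25a30, which act in fatty acid uptake, fat breakdown and mitochondrial transport, rose as well. These are gene totals, which for Slc27a1 and Pnpla2 came mostly from transcripts not labelled as coding. Slc27a1, a fatty acid transport protein with acyl-CoA synthetase activity, was 8.16, 3.60, 2.04 and 2.47 CPM in controls and 21.8, 45.0, 16.4 and 12.5 CPM at 1% (2.58 ± 0.37, adjusted p = 0.0123), and without control N967 its adjusted p was 0.0532. Pnpla2, the adipose triglyceride lipase, was 31.9, 36.6, 28.8 and 29.1 CPM in controls and 50.2, 77.5, 57.9 and 61.3 CPM at 1% (0.96 ± 0.16, adjusted p = 0.0232). Abhd6, a monoacylglycerol lipase, was 15.4, 15.0, 13.2 and 19.3 CPM in controls and 32.2, 45.3, 28.5 and 31.6 CPM at 1% (1.12 ± 0.19, adjusted p = 0.0244). For both lipases the highest control lay below the lowest 1% liver. Slc25a30, a mitochondrial carrier, was 15.0, 12.2, 24.0 and 7.62 CPM and 69.5, 42.9, 103 and 35.5 CPM (2.10 ± 0.37, adjusted p = 0.0411). The calls of Pnpla2, Abhd6 and Slc25a30 were lost without 5, 4 and 7 single libraries in turn: N967, N968, N984, N971 or N972 for Pnpla2 (adjusted p 0.0563 to 0.117), N980, N967, N984 or N972 for Abhd6 (0.0742 to 0.0833), and N980, N983, N984, N971, N987, N988 or N976 for Slc25a30 (0.0521 to 0.123). With no sex term the adjusted p was 0.0619 for Slc27a1, 0.0511 for Pnpla2, 0.0511 for Abhd6 and 0.0566 for Slc25a30. With the noncoding share in the fit it was 0.0796 for Abhd6 and 0.222 for Slc25a30, and without the 3 livers rich in noncoding reads 0.109 for Pnpla2, 0.202 for Abhd6 and 0.240 for Slc25a30. The call of Abhd6 was also lost on transcript sums (0.0703) and that of Slc25a30 with the 8 libraries alone (0.105).

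In a list of 46 PPARα-linked genes of fasting and lipid handling, 4 rose (Ehhadh, Slc27a1, Pnpla2 and the keratin gene Krt23) and 1 fell, Ppard, which codes for the sister receptor PPARδ. Of all genes 0.138% rose and 0.0869% fell. The lists overlap: Ehhadh is also counted with the peroxisomal genes and Krt23 with the keratins. Ppard was 38.3, 26.1, 20.2 and 13.5 CPM in controls and 8.39, 5.00, 7.77 and 4.63 CPM at 1% (-1.85 ± 0.30, adjusted p = 0.0224). Its highest 1% liver was below its lowest control, and the call was lost without N967, N983, N984 or N972 (adjusted p 0.0571 to 0.0733), with no sex term (0.0542) and without the 3 livers rich in noncoding reads (0.144). Ppara itself gave -0.09 ± 0.28 (adjusted p = 0.933), with 17.7 to 49.2 CPM in controls and 18.1 to 32.6 CPM at 1%. Pdk4, the kinase that shuts pyruvate dehydrogenase in fasting, stood at 17.8, 40.2, 45.1 and 24.5 CPM in controls and 10.3, 9.06, 14.7 and 10.7 CPM at 1%, a lower level in every 1% liver that did not pass (-1.52 ± 0.33, adjusted p = 0.0844; 0.0380 without N979). Angptl4, an inhibitor of lipoprotein lipase, and the hormone gene Fgf21 gave 0.55 ± 0.38 (adjusted p = 0.625) and -0.62 ± 0.57 (adjusted p = 0.725). The list thus held genes on either side of its median of 0.28. Without N979 it counted 6 higher and 3 lower, where 0.438% and 0.842% of all genes were.

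Of 29 tested SREBP2 targets and cholesterol synthesis genes 2 fell, where 0.0869% of all genes did, and none rose. Of the 29, 27 had a negative fold change, with a median of -1.10 where the median of all genes was 0.00063. All 1% livers lay below all controls for 8 of the 29, against 2.03% of all genes. Insig1, the sterol-regulated anchor of SREBP in the ER, was 543, 1082, 425 and 597 CPM in controls and 184, 128, 256 and 249.2 CPM at 1% (-1.76 ± 0.34, adjusted p = 0.0558). Sqle, the squalene epoxidase, was 8.70, 169, 23.8 and 21.9 CPM in controls and 22.5, 5.78, 7.17 and 2.76 CPM at 1% (-2.48 ± 0.96, adjusted p = 0.399). Control N980 was far above the other controls for Sqle, and the diets overlapped. Srebf2, the gene of SREBP2, gave -0.47 ± 0.17 (adjusted p = 0.312). Without N979 7 of the 29 fell, where 0.842% of all genes did. Insig1 was among them (adjusted p = 0.0464), and the median was -1.24. In the females the median was -1.39 and in the males -0.79. Over the 25 alternatives the median of all livers ran from -1.27 to -0.44. Summed, the list stood at 2869, 7897, 4270 and 4482 CPM in controls and 2741, 2319, 2438 and 2976 CPM at 1%. Control female N980 was thus the highest and control female N979 the lowest control, and the medians depend on both.

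Of 32 tested SREBP1c targets and other genes of fatty acid and triglyceride synthesis none passed, and 26 had a negative fold change (median -0.67). Fasn, the fatty acid synthase, was 587, 2479.9, 1950.4 and 1822 CPM in controls and 412, 243, 381 and 568 CPM at 1% (-2.09 ± 0.49, adjusted p = 0.123). Acly, which makes cytosolic acetyl-CoA from citrate, was 194, 1669, 1190.0 and 1337 CPM in controls and 180.4, 83.2, 164 and 256 CPM at 1% (-2.69 ± 0.63, adjusted p = 0.138). Gpam, the first enzyme of triglyceride synthesis, was 135, 932, 730.4 and 737 CPM in controls and 112, 89.6, 178 and 257 CPM at 1% (-2.07 ± 0.45, adjusted p = 0.0886). In all 3 genes control N979 sat with or next to the 1% livers while the other 3 controls were several times higher. Over the 25 alternatives the median of the list ran from -0.79 to -0.30, and without N979 it was -0.70. Without N979, 9 of the 32 fell, where 0.842% of all genes did. Among them were Acaca, the carboxylase that makes malonyl-CoA (-2.25 ± 0.25, adjusted p = 0.00141), Gpam (-2.37 ± 0.27, adjusted p = 0.00141), Acly (-3.03 ± 0.45, adjusted p = 0.0126), the elongase gene Elovl6 (-2.63 ± 0.41, adjusted p = 0.0157), Fasn (-2.38 ± 0.40, adjusted p = 0.0227) and the liver pyruvate kinase gene Pklr (-2.04 ± 0.37, adjusted p = 0.0302). Of the 25 alternatives, Acaca, Gpam and Fasn passed in 4, and Acly, Elovl6 and Pklr in 3. Their smallest sizes were -1.04 for Acaca, -1.21 for Gpam, -1.36 for Fasn, -1.59 for Acly, -1.09 for Elovl6 and -1.17 for Pklr. Scd1, the stearoyl-CoA desaturase, and Srebf1 passed neither with all livers nor without N979. They gave -0.72 ± 0.40 (adjusted p = 0.526) and -0.68 ± 0.42 (adjusted p = 0.577) in all livers.

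Enzymes that desaturate and elongate polyunsaturated fatty acids showed no gene past the threshold among 17 tested, with a median of -0.07. Fads2, the first desaturase, was 370.1, 999, 969.9 and 555 CPM in controls and 559.5, 550.5, 1028 and 904 CPM at 1% (0.00353 ± 0.28, adjusted p = 0.998). Fads1, the delta-5 desaturase, gave -0.12 ± 0.25 (adjusted p = 0.888), Elovl5 -0.50 ± 0.28 (adjusted p = 0.520) and Elovl2, which elongates toward docosahexaenoic acid, -0.57 ± 0.40 (adjusted p = 0.632). The livers of both diets overlapped for all 4.

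**Figure D3:**
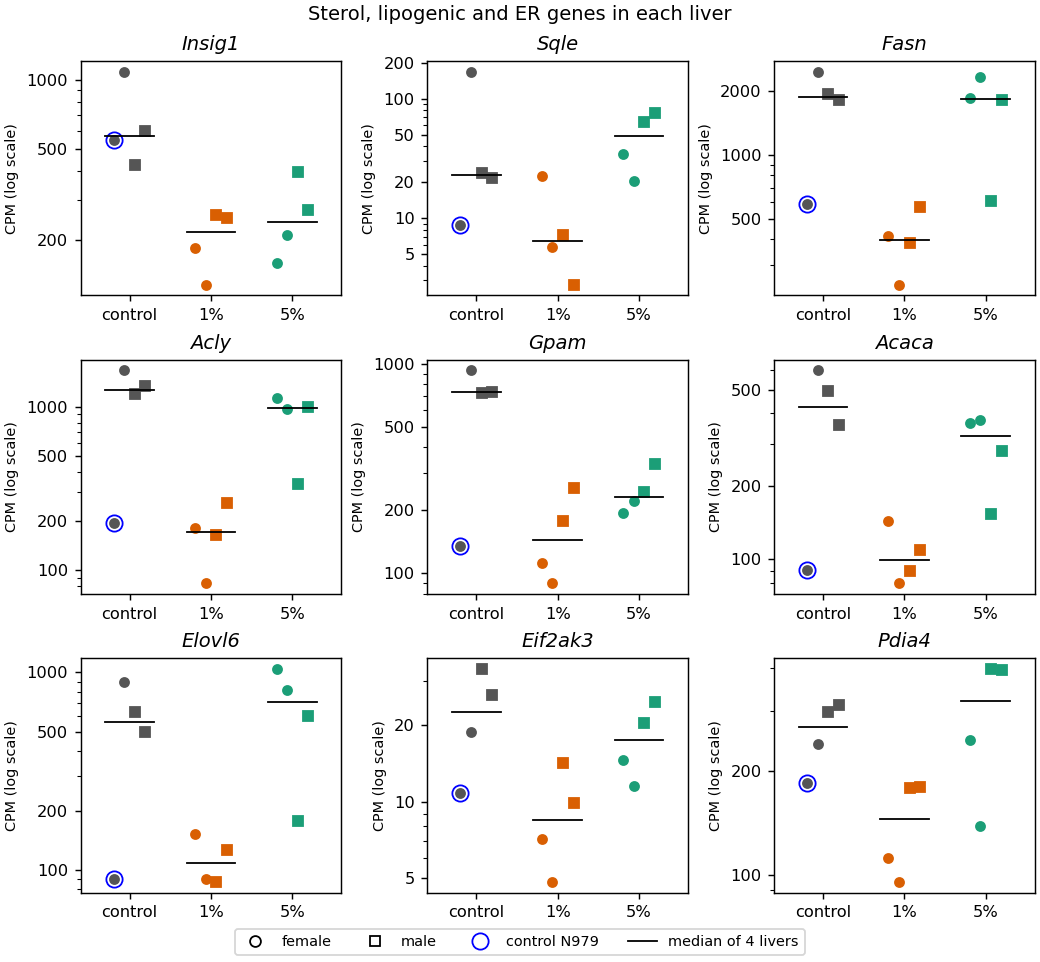
CPM on a log axis in each of the 12 livers by diet for 9 genes, with the median of 4 livers as a bar (circles females, squares males, blue ring control N979). Insig1, Fasn and Pdia4 are lower in every 1% liver than in any control, and N979 lies among the 1% livers for Sqle, Acly, Gpam, Acaca, Elovl6 and Eif2ak3.

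The unfolded protein response relieves the ER when proteins misfold, and 1 of its 37 tested genes fell, where 0.0869% of all genes did. That gene was Eif2ak3, which codes for the sensor kinase PERK. Eif2ak3 was 10.9, 18.9, 33.4 and 26.3 CPM in controls and 7.16, 4.84, 14.2 and 9.86 CPM at 1% (-1.30 ± 0.21, adjusted p = 0.0223). Control N979 was below 1% male N971, the only overlap of the 2 diets among the 31 genes; the females were lower than the males within each diet, a difference that the sex term takes up. Its call was lost without N980, N967, N968, N984 or N972 (adjusted p 0.0547 to 0.0833), with no sex term (0.325), with the noncoding share in the fit (0.0791) and without the 3 livers rich in noncoding reads (0.0531). Of the 37 genes 32 had a negative fold change, 12 lay below all controls in every 1% liver, where 2.03% of all genes did, and the median was -0.51. Pdia4 and Manf, an ER disulfide isomerase and an ER stress-induced secreted factor, were 185, 240.1, 298 and 311 CPM against 112, 95.3, 179 and 179.9 CPM (-0.90 ± 0.19, adjusted p = 0.0717) and 119, 152, 134 and 212 CPM against 59.5, 57.3, 105 and 95.5 CPM (-1.01 ± 0.22, adjusted p = 0.0774). Without N979, 5 of the 37 fell, where 0.842% of all genes did. Pdia4 was among them (adjusted p = 0.0427), and the median was -0.64.

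Mindy2, a deubiquitinase gene, was 17.4, 35.5, 25.5 and 27.4 CPM in controls and 9.31, 7.65, 11.7 and 9.07 CPM at 1% (-1.51 ± 0.24, adjusted p = 0.0204). The 4 treated livers lay within a narrow band below the lowest control, and the call was lost without N984 or N972 (adjusted p 0.0713 to 0.0773), with no sex term (0.0593), with the noncoding share in the fit (0.0791) and without the 3 livers rich in noncoding reads (0.0771).

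Of the clock-controlled genes, Tef rose. Tef, a PAR-type leucine zipper factor that carries the daily rhythm to its targets, was 49.9, 19.997, 17.7 and 19.8 CPM in controls and 59.0, 142, 64.8 and 64.3 CPM at 1% (1.65 ± 0.29, adjusted p = 0.0292). N979 was the highest control and N984 the highest 1% liver, each far from the rest of its group. Without N979 the difference was 1.98 ± 0.26, and the call was lost without N980, N967, N968, N984, N971 or N972 (adjusted p 0.0558 to 0.110), with no sex term (0.158) and with the 8 libraries alone (0.0649). Dbp, a factor of the same family, was 0.363, 1.10, 0.157 and 0.644 CPM in controls and 1.62, 19.99, 14.7 and 17.3 CPM at 1%, higher in every treated liver but not past the threshold (4.42 ± 0.84, adjusted p = 0.0718). Nr1d2, a repressor of the clock loop, was 30.6, 25.4, 17.6 and 28.4 CPM and 45.1, 63.9, 50.5 and 41.1 CPM (0.97 ± 0.19, adjusted p = 0.0504; 0.0248 without N979). Bhlhe41, another clock repressor, was 0, 0.100, 0.313 and 0.215 CPM and 0.923, 0.625, 1.37 and 2.66 CPM (3.02 ± 0.65, adjusted p = 0.0729). Por, the electron donor of the P450 enzymes, counted here as a clock output, was 179, 76.4, 44.0 and 45.2 CPM and 212, 447, 134 and 136 CPM (1.47 ± 0.29, adjusted p = 0.0564; 0.00382 without N979). Of 19 core clock genes 0 passed, with 3 above and 5 below all controls in every 1% liver, where 1.83% and 2.03% of all genes were, and of 17 outputs 1 passed; the labels give no time of day for the dissections.

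The E-box CACGTG, the letters bound by the clock pair CLOCK and BMAL1 and by other factors, was in 5 of the 30 windows of the genes past the threshold and in 6.02% of all windows. The genes were Tef (both of its windows), Bnip3, Krt23 and Slc27a1, and a match is a description and no site. The windows of Tef at its second start and of Bnip3 are printed with the E-box in capitals, from RefSeq on GRCm38.p6, 250 bases before the start; Bnip3 is on the minus strand and is written 5′ to 3′ along the gene.
Tef (chr15:81811164-81811413): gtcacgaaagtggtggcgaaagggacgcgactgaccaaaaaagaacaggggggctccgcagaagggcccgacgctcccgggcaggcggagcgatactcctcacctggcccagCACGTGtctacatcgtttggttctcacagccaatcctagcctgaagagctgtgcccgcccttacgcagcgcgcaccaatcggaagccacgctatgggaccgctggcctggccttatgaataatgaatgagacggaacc
Bnip3 (chr7:138909507-138909756): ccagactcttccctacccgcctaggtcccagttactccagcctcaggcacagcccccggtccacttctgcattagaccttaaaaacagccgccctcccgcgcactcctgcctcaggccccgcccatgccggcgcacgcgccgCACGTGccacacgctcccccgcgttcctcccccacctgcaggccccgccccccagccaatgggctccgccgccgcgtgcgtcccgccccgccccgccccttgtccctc
The sterol response element, searched as TCACNCCAC on either strand, was in 1 of the 30 windows, that of Ehhadh, and in 1.05% of all windows; none of the E-boxes overlapped it or the direct repeat.

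Other genes that rose have varied roles. Nlrp12, a NOD-like receptor that restrains inflammatory signalling, was 11.97, 9.80, 15.99 and 15.7 CPM in controls and 33.7, 53.1, 50.4 and 59.3 CPM at 1% (1.90 ± 0.23, adjusted p = 0.00210). It was the only one of 29 tested genes of inflammatory signalling past the threshold. Krt23, a type I keratin gene, was 2.18, 3.40, 1.57 and 2.90 CPM in controls and 8.31, 25.9, 19.04 and 24.0 CPM at 1% (2.91 ± 0.39, a 7.53-fold rise, adjusted p = 0.00637). Of 12 tested keratin and bile duct genes it alone passed, and the list's median was -0.03. Smad9, a SMAD protein that relays BMP signals, was 0.907, 1.30, 2.66 and 0.859 CPM in controls and 12.7, 3.90, 20.2 and 9.86 CPM at 1% (3.04 ± 0.42, adjusted p = 0.00752). It was 1 of 39 BMP and TGF-beta genes past the threshold, and the BMP-responsive gene Id1 stood at 4.53, 3.10, 0.313 and 0.752 CPM and 8.31, 4.06, 16.6 and 7.69 CPM without passing (2.46 ± 0.67, adjusted p = 0.181). Rad51b, a gene of DNA repair, was 11.97, 14.3, 12.5 and 9.88 CPM in controls and 49.9, 53.7, 26.2 and 37.5 CPM at 1% (1.73 ± 0.22, adjusted p = 0.00267), with females above males on the oil. The calls of these 4 held without any single library, and with no sex term those of Nlrp12 and Rad51b were lost (adjusted p 0.0542 and 0.0593).

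Bnip3, a mitochondrial outer membrane protein of mitophagy, was 133, 138, 121 and 131 CPM in controls and 230.2, 277, 231 and 258 CPM at 1% (0.93 ± 0.15, adjusted p = 0.0217). Its controls were the tightest of the genes past the threshold on a log scale, and the difference was the smallest of the increases. Gstt2, a theta-class glutathione transferase, was 55.8, 30.6, 25.4 and 34.6 CPM in controls and 78.6, 122, 78.1 and 99.3 CPM at 1% (1.39 ± 0.23, adjusted p = 0.0234). Serinc2, a serine incorporator gene, was 5.44, 4.599, 10.3 and 8.81 CPM in controls and 11.5, 18.7, 16.4 and 20.8 CPM at 1% (1.24 ± 0.21, adjusted p = 0.0263). In each gene the 2 diets formed separate groups. Their calls were lost without N967, N968, N984 or N972 for Bnip3 (adjusted p 0.0743 to 0.111), N980, N967, N968, N984 or N972 for Gstt2 (0.0579 to 0.0833) and N980, N968, N984 or N972 for Serinc2 (0.0813 to 0.0886). All 3 were lost with no sex term, at 0.0527, 0.0964 and 0.151. Without the 3 livers rich in noncoding reads Bnip3 had 0.185 and Serinc2 0.126, and with the noncoding share in the fit Serinc2 had 0.0797.

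The decrease with the smallest p was that of Abtb2, which codes for a protein with ankyrin repeats and a BTB domain. It was 13.1, 16.6, 15.99 and 22.6 CPM in controls and 4.46, 4.84, 7.77 and 5.92 CPM at 1% (-1.58 ± 0.19, adjusted p = 0.00210), and the call held without any single library. Lrtm1, a leucine-rich repeat membrane protein gene, was 13.4, 14.2, 9.40 and 13.96 CPM in controls and 2.69, 1.41, 1.45 and 3.85 CPM at 1% (-2.41 ± 0.36, adjusted p = 0.0123). Sgsm1, a modulator of small G proteins, was 4.71, 8.40, 2.35 and 2.68 CPM in controls and 1.39, 0.937, 0.683 and 0.592 CPM at 1% (-2.25 ± 0.33, adjusted p = 0.0105). All 3 were lower in every 1% liver than in any control. Fam198a was 25.0, 29.4, 18.2 and 18.5 CPM in controls and 14.2, 5.15, 6.40 and 4.73 CPM at 1% (-1.58 ± 0.27, adjusted p = 0.0273), with 1% female N983 nearest to the controls. Shank2, a scaffold protein gene best known from synapses, was 26.7, 19.8, 20.8 and 15.6 CPM in controls and 13.2, 9.21, 10.2 and 8.18 CPM at 1% (-1.01 ± 0.18, adjusted p = 0.0367). The calls were lost without N968 or N984 for Lrtm1 (adjusted p 0.0560 to 0.0615), N984 for Sgsm1 (0.0542), N980, N967, N968, N984, N971 or N972 for Fam198a (0.0578 to 0.0891) and N967, N968, N984, N971, N972 or N976 for Shank2 (0.0531 to 0.118). With no sex term the adjusted p was 0.0619 for Sgsm1, 0.153 for Fam198a and 0.0964 for Shank2, and with the noncoding share in the fit 0.100 for Fam198a. Without the 3 livers rich in noncoding reads it was 0.143 for Lrtm1, 0.106 for Sgsm1 and 0.173 for Shank2. Shank2 also missed the threshold with the 8 libraries alone (0.0565) and with limma on deposited CPM (0.0754 and 0.0768). The predicted gene Gm49339, named because its values stand out and outside the rule for named genes, had 59 reads over the 4 controls, 0 over the 4 livers on 1% oil and 94 over those on 5% oil; taking 3 reads over the 4 livers as the floor, it was at least 26.0-fold lower at 1% (adjusted p = 0.0282).

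Just outside the threshold, 13 genes shared an adjusted p of 0.0504, and all 13 passed without N979. They were Slc27a2 (log2 fold change 0.91 ± 0.17), the very-long-chain acyl-CoA synthetase of peroxisomes and ER, E2f8 (2.20 ± 0.41), Pter (-0.98 ± 0.19), Nr1d2 (0.97 ± 0.19), Rassf6 (-1.59 ± 0.30), the acute phase gene Saa2 (-2.11 ± 0.39), Nupr1 (-1.65 ± 0.32), Tubb2a (-1.28 ± 0.25), Adgrg2 (1.80 ± 0.35), Pmm1 (1.33 ± 0.26), Gpat3 (1.32 ± 0.26), Gas6 (-1.08 ± 0.21) and Cnp (-0.97 ± 0.19). Just inside it stood Slc25a30 at an adjusted p of 0.0411 and Shank2 at 0.0367. Saa2 read 31.2, 32.9, 64.3 and 83.5 CPM in controls and 7.23, 13.7, 12.98 and 12.5 CPM at 1%, with every treated liver below every control.

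Among secreted and immune genes, 0 of 44 interferon genes, 0 of 31 acute phase genes and 0 of 40 complement and coagulation genes passed. Their medians were -0.36, -0.25 and -0.22, and 39, 22 and 36 members had a negative fold change. Ifit3 and Irf7, both induced by interferon, were 20.1, 25.7, 22.4 and 22.6 against 11.4, 9.68, 15.5 and 8.68 CPM (-0.998 ± 0.23, adjusted p = 0.0891) and 32.1, 28.1, 26.6 and 26.2 against 16.8, 20.1, 18.4 and 13.02 CPM (-0.73 ± 0.19, adjusted p = 0.138). The complement gene C4b was 1302, 1292, 1136 and 898 against 782, 825, 642 and 697 CPM (-0.65 ± 0.14, adjusted p = 0.0774). In these 3 genes every 1% liver was below every control. Orm2, an acute phase protein gene, gave -1.33 ± 0.29 (adjusted p = 0.0809), and Socs3, a feedback inhibitor of cytokine signalling, 1.46 ± 0.50 (adjusted p = 0.287; 0.0161 without N979). Without N979 2 of the 44 interferon genes, 1 acute phase gene and 1 complement gene fell, where 0.842% of all genes did. In every 1% liver 7 of the 44 interferon genes lay below all controls, where 2.03% of all genes did. The same held for 3 of the 31 acute phase genes and 3 of the 40 complement and coagulation genes.

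Markers of the other cells of liver were compared as whole lists, because in bulk tissue fewer cells of a type and less RNA per cell cannot be told apart. Kupffer cell and macrophage markers summed to 636 to 1127 CPM in controls and 435 to 724 CPM at 1%, with 16 of 24 tested genes negative, a median of -0.63 and none past the threshold. The other 8 were positive, the largest at 2.33. In every 1% liver 1 gene lay above all controls and 1 below, where 1.83% and 2.03% of all genes did. Marco, a scavenger receptor of Kupffer cells, was 11.6, 5.00, 9.56 and 9.77 CPM and 2.69, 2.03, 2.22 and 1.08 CPM (-2.20 ± 0.46, adjusted p = 0.0718), and Folr2 was 11.1, 23.4, 9.09 and 10.95 CPM and 8.54, 9.37, 2.73 and 4.44 CPM (-1.19 ± 0.30, adjusted p = 0.127; 0.0394 without N979). Sums overlapped between diets for every cell type. They were 390.1 to 648 CPM in controls and 472 to 675 CPM at 1% for 21 sinusoidal endothelial genes (median 0.13), and 462 to 639.9 and 357 to 498 CPM for 20 stellate and matrix genes (-0.29). For 18 lymphocyte and neutrophil genes the sums were 45.1 to 89.2 and 33.3 to 153 CPM (0.14), and for 7 erythroid genes 248.6 to 526 and 78.2 to 558 CPM (-0.54). Of the 10 adipocyte genes 5 were tested (median 0.83), the adipokine gene Lep had no read in the 8 livers, and the sum of 1246 to 2339 CPM in controls and 811 to 3982 CPM at 1% came mostly from Pck1, which hepatocytes also express. Bile duct and keratin genes summed to 332 to 399 CPM and 319 to 492 CPM, and Sctr, a bile duct receptor gene, had no read. No gene of these cell lists passed apart from Krt23, and the part of cell makeup in the other results was not tested.

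**Figure D4:**
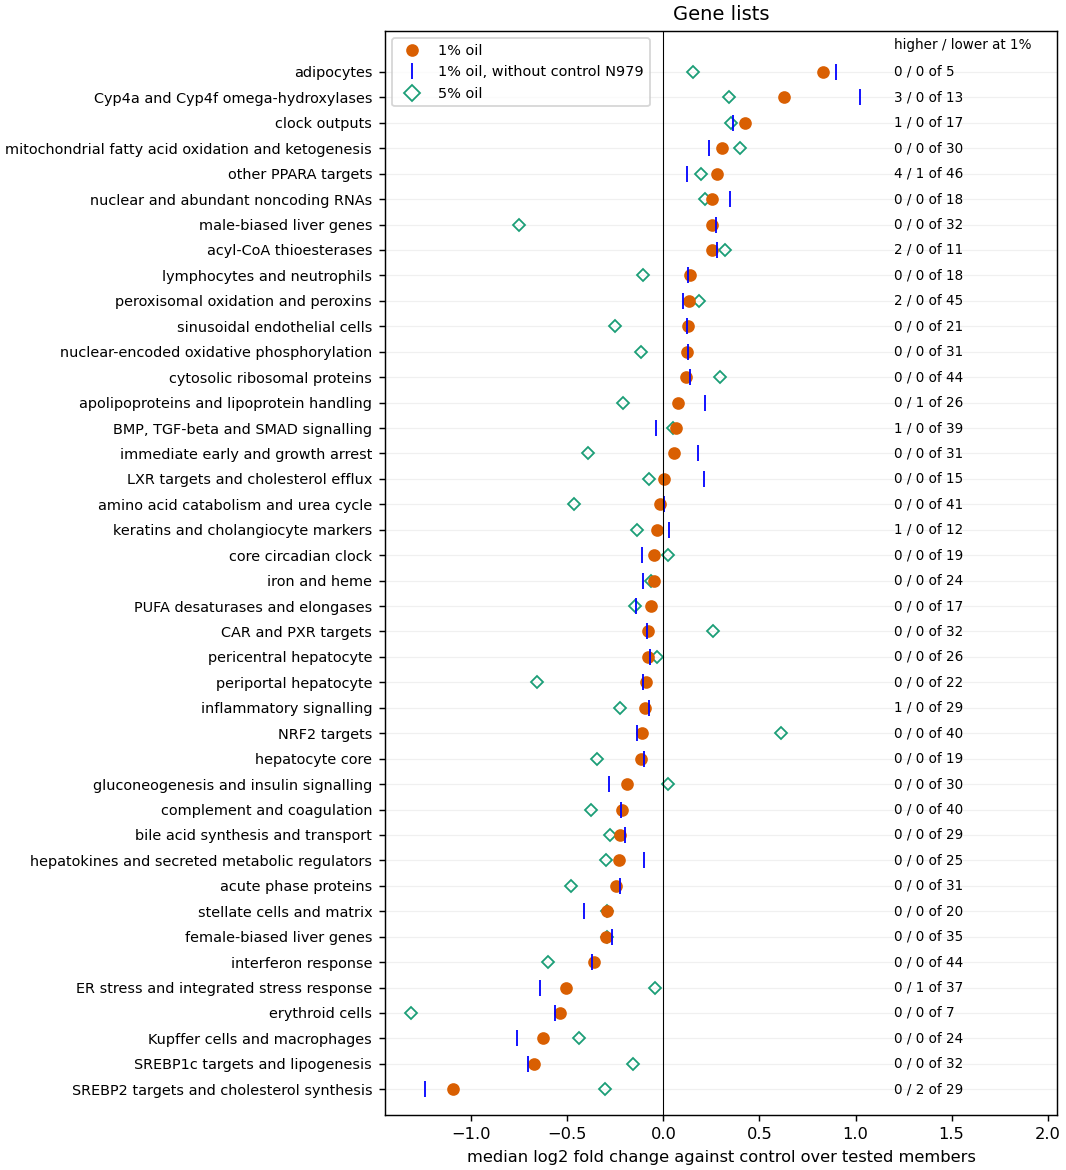
Median log2 fold change against control over the tested members of each of 41 gene lists (orange 1% oil, blue bar 1% oil without control N979, green diamond 5% oil), with the numbers higher and lower past the threshold at 1% of those tested at the right. SREBP2 targets lie lowest at 1%, at -1.10, and NRF2 targets lie at -0.11 at 1% and at 0.61 at 5%.

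Of 40 tested NRF2 targets, the genes of the antioxidant and electrophile response, 0 passed and the median was -0.11; Nqo1, the quinone reductase, gave -0.10 ± 0.18 (adjusted p = 0.867) and Gstm1 -0.00380 ± 0.22 (adjusted p = 0.998). Nqo1 read 11.1, 9.00, 11.3 and 14.5 CPM in controls and 10.2, 8.59, 11.9 and 11.8 CPM at 1%. Of 32 CAR and PXR targets 0 passed (median -0.08). Bile acid genes had 0 of 29 past the threshold (-0.22), and Cyp7a1, the rate-limiting enzyme of bile acid synthesis, gave 0.07 ± 0.51 (adjusted p = 0.972) with N983 far above the other 1% livers. LXR targets had 0 of 15 (0.01); the sterol exporter genes Abcg5 and Abcg8 were higher in every 1% liver than in any control, at 110.4, 70.7, 60.2 and 65.7 against 154, 142, 247 and 114 CPM (1.11 ± 0.29, adjusted p = 0.152) and 75.1, 76.9, 61.3 and 62.3 against 100.04, 95.6, 208 and 121 CPM (0.89 ± 0.24, adjusted p = 0.164). Of 26 apolipoprotein and lipoprotein genes 1 passed, and it fell; Apoa5, a regulator of triglycerides, was 1066, 703, 668 and 704 CPM in controls and 1285, 1441, 1472 and 1426 CPM at 1% (0.86 ± 0.19, adjusted p = 0.0774; 0.0253 without N979).

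The remaining lists held no gene past the threshold. Their medians were -0.19 for 30 genes of gluconeogenesis and insulin signalling, -0.02 for 41 of amino acid catabolism and the urea cycle, -0.23 for 25 hepatokines and -0.05 for 24 of iron and heme. Alas1, the first enzyme of heme synthesis, was 103, 36.9, 114 and 149 CPM in controls and 242, 604, 394 and 267 CPM at 1%, above all controls in each treated liver without passing (1.95 ± 0.42, adjusted p = 0.0844). Pericentral and periportal hepatocyte genes gave -0.08 (26 genes) and -0.09 (22 genes). Immediate early and growth arrest genes gave 0.06 (31 genes), nuclear-encoded respiratory chain genes 0.12 (31 genes) and cytosolic ribosomal protein genes 0.12 (44 genes). Btg1, an antiproliferative gene, was 94.3, 146, 90.9 and 121 against 63.6, 51.1, 63.3 and 71.2 CPM (-0.87 ± 0.19, adjusted p = 0.0831). Nuclear and abundant noncoding RNAs summed to 465 to 1269 CPM in controls and 489 to 986 CPM at 1%, with a median of 0.26 over 18 genes.

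The response to 1% oil was compared between the sexes with an interaction term. No gene passed for the difference in edgeR (0 of 13814, 517 at an unadjusted p below 0.05), where DESeq2 gave 6, limma voom 0, the fit without N979 1 and the fit without N972 2. Within females 4 genes passed (0.029%) and within males 10 (0.0724%), from 2 livers a diet; the 2 counts were not compared by a test. The 5 genes of smallest p for the difference were Celsr1, Id1, Hes1, Tsku and Klf11. Celsr1, a cadherin of planar polarity, gave -0.19 ± 0.21 in females and -1.83 ± 0.22 in males (adjusted p of the difference = 0.565), with 26.5, 25.5, 26.8 and 26.6 CPM in controls and 23.7, 21.7, 7.60 and 7.396 CPM at 1%. Id1 gave 0.75 ± 0.48 and 4.41 ± 0.59 (1.00), and the Notch target Hes1 -0.24 ± 0.35 and 2.58 ± 0.38 (0.565). Tsku, a secreted liver factor, gave 2.13 ± 0.25 and -0.14 ± 0.23 (0.314), and Klf11 -1.14 ± 0.23 and 0.57 ± 0.23 (0.659). Male-biased liver genes had a median of -0.05 in females and 0.40 in males, and Socs2, a growth hormone-induced feedback gene, was 10.9, 4.199, 6.11 and 3.76 CPM in controls and 71.4, 21.2, 104 and 30.6 CPM at 1% (3.24 ± 0.61, adjusted p = 0.0718). Female-biased genes had medians of -0.18 and -0.14, and 0 of 32 male-biased and 0 of 35 female-biased genes passed in the main comparison.

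At the level of single transcripts 5 of 32998 tested passed (0.0152%), all higher. They were Acot1-202 (log2 fold change 2.93 ± 0.26), Acot1-201 (3.26 ± 0.40), Cyp4a10-201 (2.49 ± 0.28), Nlrp12-201 (1.93 ± 0.23) and a transcript with no matched name whose values equal those of Nlrp12-201 in every library, so that the pair is 1 measurement. Acot1-202 was 10.7, 5.63, 4.82 and 3.61 CPM in controls and 60.5, 46.4, 30.3 and 45.0 CPM at 1%. For Slc27a1 the most strongly changed form was the retained-intron transcript Slc27a1-202 (2.96 ± 0.51, adjusted p = 0.216), and the coding Slc27a1-201 gave 2.06 ± 1.77. At 1% Slc27a1-202 was 17.8, 33.8, 11.96 and 8.14 CPM and Slc27a1-201 was 2.01, 0, 0.683 and 1.83 CPM. The most abundant form of Pnpla2, Pnpla2-201, is labelled as nonsense-mediated decay. It was 39.4, 62.6, 46.4 and 45.2 CPM at 1% (0.88 ± 0.22, adjusted p = 0.709). Transcript values come from an estimate that divides shared reads, so they are less certain than gene values. The count of 5 depended on single libraries: it was 0 without N967 or N983, 1 without N984, N971, N972 or N976, 2 without N979 or N988, 3 without N980, N968 or N975, and 4 without N987.

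The 5% diet was measured against the same 4 controls, so the 2 sets of fold changes share their error and only the values are set side by side. At 5% 340 genes passed (2.46% of those tested), and 20 of the 31 genes did so. Acot1 was 2.46 ± 0.18 at 5%, Cyp4a10 2.56 ± 0.26, Cyp4a14 2.57 ± 0.29 and Rad51b 1.63 ± 0.22, each within 1 standard error of its 1% value. Ehhadh was 2.34 ± 0.24 and Lrtm1 -3.79 ± 0.39, larger in size than at 1%, though 5% against 1% did not pass for either (adjusted p = 0.109 and 0.105). Of the 27 named genes, 7 had a larger size at 5% than at 1%.

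The direct comparison of 5% with 1% uses no control and had 184 genes past the threshold (1.33%), 7 of the 31 among them. In all 7 the 5% livers differed from the 1% livers in the direction of the controls. Nlrp12 was 11.7, 17.2, 38.3 and 25.1 CPM at 5% (in the order N987, N988, N975, N976; 5% minus 1% -1.18 ± 0.22, adjusted p = 0.0298) and Krt23 8.69, 7.07, 6.02 and 3.63 CPM (-1.63 ± 0.35, adjusted p = 0.0432). Both increases were thus smaller at the higher dose. Sgsm1 was 3.25, 3.17, 2.55 and 2.64 CPM (1.71 ± 0.33, adjusted p = 0.0304), Eif2ak3 14.7, 11.6, 20.5 and 24.8 CPM (1.01 ± 0.21, adjusted p = 0.0406) and Fam198a 17.4, 25.1, 10.9 and 18.3 CPM (1.24 ± 0.27, adjusted p = 0.0432). Gm49339 was another, and Slc25a30, at 18.2, 17.3, 22.0 and 27.7 CPM, lay just outside (-1.57 ± 0.36, adjusted p = 0.0519). Because these genes were taken for passing at 1%, a value nearer the controls at another dose is partly what such a choice gives. The count of 7 was 0 without N984, N971 or N976, 2 without N972 or N987, 3 without N983 or N988 and 4 without N967.

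List medians at the 2 doses share their controls in the same way. SREBP2 targets were at -1.10 at 1% and -0.30 at 5%, SREBP1c targets at -0.67 and -0.16, and ER stress genes at -0.51 and -0.04. In the direct comparison of the doses 2, 3 and 8 of their members passed. Male-biased liver genes were at 0.26 and -0.75 with 2 of 32 past the threshold between the doses, and periportal genes at -0.09 and -0.66 with 3 of 22. NRF2 targets went from -0.11 to 0.61, with 15 of 40 past the threshold in 5% against 1%; Nqo1 was 31.9, 44.5, 35.2 and 36.3 CPM at 5% (5% minus 1% 1.81 ± 0.18, adjusted p = 7.36e-04). Slc22a7, an organic anion transporter gene, was 0.937, 0.589, 1.97 and 1.60 CPM at 5% and 7.62, 4.22, 8.45 and 12.4 CPM at 1% (-2.74 ± 0.31, adjusted p = 0.00102). For Cyp4a and Cyp4f genes and thioesterases 0 members passed the threshold in 5% against 1%, which does not show equal levels. Cyp4a31 was 30.6, 27.7, 39.1 and 22.9 CPM at 5% and 50.7, 57.6, 64.5 and 46.4 CPM at 1%. Its 5% livers were all below its 1% livers without passing (5% minus 1% -0.87 ± 0.25, adjusted p = 0.0997).

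**Figure D5:**
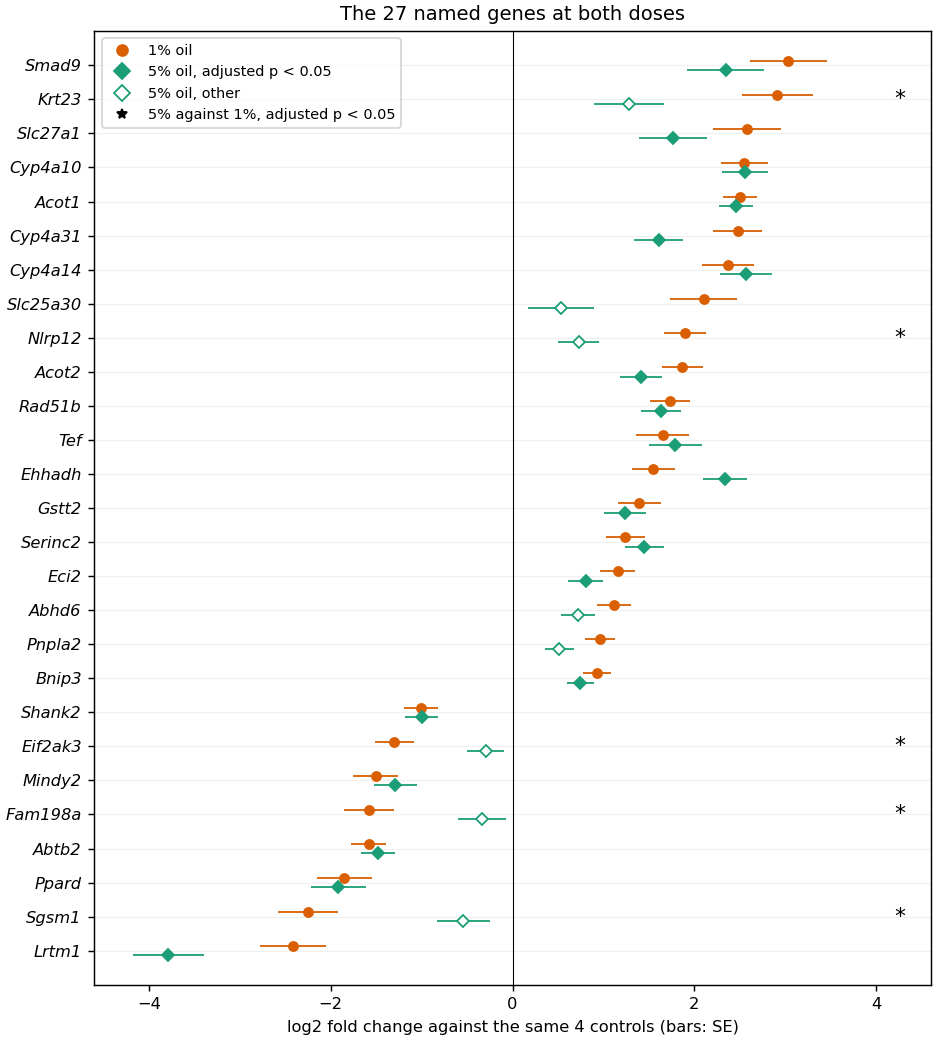
Log2 fold change against the same 4 controls, with standard errors, for the 27 named genes past the threshold at 1% (orange) and the same genes at 5% (green, filled where adjusted p is below 0.05). A star marks the 5 genes whose 5% and 1% livers differ, Krt23, Nlrp12, Eif2ak3, Fam198a and Sgsm1, all nearer 0 at 5%.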

How the data were processed

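RNA of 12 mouse liver samples was extracted with a column kit, and poly(A) libraries were made with a stranded kit from RNA of integrity number over 7, per the labels. The authors deposited estimated counts per gene and per transcript and a table of CPM per gene; kallisto, edgeR, limma and the build GRCm39 are named in the submitters' processing notes with no versions, and whether strand was used in counting is not given in the sources used here, so overlapping and antisense genes are uncertain. The deposited estimated counts are not whole in 11.7% of values and were rounded. The CPM shown were computed here from these counts with TMM factors, and the deposited CPM served an alternative.

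Gene IDs were paired with symbols from a GENCODE M21 (GRCm38) table, 48845 of 49398 matching. Counts of all 12 libraries were fitted with edgeR 4.0.16 (R 4.3.3; filterByExpr with 6 diet-by-sex groups, TMM, robust quasi-likelihood test, sex as an additive term), the 1% and control coefficients were compared, and p was adjusted by Benjamini-Hochberg over 13814 genes with a threshold of 0.05. Every adjusted p printed is from this edgeR fit unless another is named; ± after a fold change is its standard error, the size of the log2 fold change divided by the root of F. The common biological coefficient of variation was 0.266. The sex difference came from a fit of the 6 groups, and transcripts were fitted like genes. A p within 4 livers a diet measures the spread between these libraries, and their number and depth limit the precision. The fit was also run on counts simulated from its own model. These held no outlying library, so they cannot show how the fit treats a liver such as N979.

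Genes are named if they passed the threshold and are not predicted genes, if they are among the 2 smallest p of a list, if they stand on a fixed list of liver genes, or if they are among the 5 smallest p for the sex difference. The comparison and the 41 gene lists (1073 symbols, 994 tested) were chosen with earlier results of these data known, and lists are described by counts and medians with no set test. The alternatives were the 8 libraries alone, no sex term, a noncoding share term, RLE and upper quartile scaling, no filter or at least 50 reads in 4 libraries, DESeq2 1.42.0, limma 3.58.1 (voom, or trend on log2 of deposited CPM plus 0.5 or 2), transcript sums and each library left out; leaving out the 3 livers rich in noncoding reads was added after seeing the data. Some genes are left out of the text and the figures and are not reported here; all counts include them unless said otherwise. A deposited table of differential expression was not used because its contrast is unnamed.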

Additional observations from a re-analysis of the deposited data

Results flagged for a closer look

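Among 316 sets of 4 livers (2 diets by the named genes, list sums and library measures), 22 had a liver whose gap to the next exceeded Dixon's 95% critical share of the range (6.96%, where chance gives about 5%). Control N979 was that liver in 9 sets, control N980 in 4.

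N979 was above the other controls in its noncoding share (1.55% against 0.611% to 0.726%) and in the excess of its transcript total over its gene total (9.20% against 0.408% to 0.566%). It was also above them for Eci2 (235 CPM against 146 to 154), Tef (49.9 CPM against 17.7 to 19.998), Apoa5 (1066 CPM against 668 to 704), Socs3 (8.52 CPM against 0.627 to 1.80) and the sum of BMP, TGF-beta and SMAD genes (1932 CPM against 534 to 616). It was below them for Pklr (256 CPM against 741 to 786) and Elovl5 (597 CPM against 1898 to 2007).

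N980 was the high control for Sqle (169 CPM against 8.70 to 23.8), G6pdx (86.5 CPM against 11.8 to 15.05), Folr2 (23.4 CPM against 9.09 to 11.1) and the sum of stellate and matrix genes (639.9 CPM against 462 to 488). Control N967 was low for Lrtm1 (9.40 CPM against 13.4 to 14.2) and high for Cpt1a (273 CPM against 171 to 182). Control N968 was high for Slc22a7 (29.96 CPM against 11.2 to 13.9) and Cebpa (210.4 CPM against 154 to 163).

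On 1% oil N984 was high for Tef (142 CPM against 59.0 to 64.8) and for the core clock sum (517 CPM against 449 to 453), and N983 for Cyp7a1 (18.01 CPM against 4.68 to 6.15). N972 was low for Tfrc (13.7 CPM against 19.6 to 19.98) and for the sum of nuclear and abundant noncoding RNAs (489 CPM against 911 to 986).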

How the results depend on the processing

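Under 25 alternatives every tested one of the 31 genes kept its direction, and 8 of the 27 named ones (Acot1, Acot2, Cyp4a10, Cyp4a14, Cyp4a31, Abtb2, Krt23, Smad9) passed in each alternative that tested them; 7 lost the call in 1 to 5 alternatives and 12 in 6 or more, at most 11. Against 19 higher and 12 lower genes, no sex term gave 7 and 3, no filter 302 and 347 of 25400, and DESeq2 126 and 150. The 8 libraries alone gave 27 and 26, the strict filter 32 and 18, deposited CPM with limma 36 and 18 (pseudocount 0.5) or 35 and 18 (pseudocount 2), and leaving out the 3 livers rich in noncoding reads 29 and 8. With each library left out in turn the counts ran from 11 to 63 higher and from 1 to 121 lower. For the sex difference, 0 genes became 109 with no filter, 6 with DESeq2 and up to 2 without a library. The 5 transcripts became 0 with the 8 libraries alone or no sex term, 1 with RLE, 2 with upper quartile scaling, 1880 with no filter, 12 with the strict filter, 324 with DESeq2 and 0 to 4 without a library. The 7 genes that differed between the doses became 12 with no filter, 11 with DESeq2 and 0 to 9 without a library. The cause of these shifts was not tested.

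Signs turned for 10 named genes, none past the threshold. With the noncoding share in the fit Scd1 was 0.026, Elovl2 0.049, Fads1 0.18, Cyp7a1 -0.046 and Gstm1 0.014 (log2). Gstm1 was 0.0013 with RLE, 0.032 with upper quartile scaling, 0.011 with no filter, 0.0204 with the strict filter and 0.0013 with DESeq2. On deposited CPM Fads1 was 0.047 and 0.047, Ppara 0.036 and 0.031 and Gstm1 0.046 and 0.046 for the smaller and larger pseudocount. Without the 3 livers rich in noncoding reads Hbb-bs was 0.18, Klf11 0.33, Nqo1 0.013, Cyp7a1 -0.37 and Gstm1 0.18. With each library left out in turn the fold changes ran, in log2, for Fads2 from -0.20 to 0.45, Elovl2 from -0.82 to 0.13, Fads1 from -0.30 to 0.27, Cyp7a1 from -0.63 to 0.35, Ppara from -0.29 to 0.25, Gstm1 from -0.22 to 0.10 and Nqo1 from -0.18 to 0.0239.

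No paired analysis was possible because the diets share no replicate numbers. With 4 livers a diet and 2 of each sex, a gene that missed the threshold is not shown to be unchanged, and of the single libraries left out, control N979 moved the number of genes past the threshold at 1% most.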
